A study of Mus musculus with 15 samples.

Results

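The proteasome is the protease that degrades most ubiquitin-tagged proteins in the cytosol and nucleus. Its 20S core is a barrel of alpha rings, which gate the entrance, around beta rings, which hold the proteolytic sites. Caps dock on the alpha rings: the 19S regulator binds ubiquitin chains and unfolds substrates with a ring of ATPases, and PA28 and PA200 activators open the gate without ATP. Dedicated chaperones assemble the core and the base of the 19S cap, and subunit genes are known to be transcribed together under NFE2L1 when degradation is short.

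The genes described here were the protein-coding rows of the count table whose symbols name a proteasome subunit, activator, inhibitor or assembly factor (Psma, Psmb, Psmc and Psmd followed by a number, Psme1 to Psme4, Psmf1 and Psmg1 to Psmg4). They were 49 of 52636 rows. The symbols matched 53 rows, of which 4 were pseudogenes and were left out. By class there were 8 alpha subunits, 11 beta subunits, 6 ATPases and 11 non-ATPase subunits of the 19S regulator, 5 activators and inhibitors, and 7 assembly chaperones. The remaining gene, Psmc3ip, is a meiotic recombination cofactor and not a subunit, and stands outside the classes. The genes lay on 16 chromosomes, and 14 shared exon positions with another annotated gene.

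RNA was sequenced from mouse epiblast-like cells (EpiLCs), an in vitro form of the early post-implantation epiblast, of the line CRAFR26. This line carries a c-RAF kinase construct that 4-hydroxytamoxifen (4OHT) switches on, which activates ERK, the kinase at the end of the MAP kinase cascade. Embryonic stem cells were taken through RSCs for 2 passages and then grown as EpiLCs for 48 h in bFGF (12 ng/ml), Activin A (20 ng/ml) and XAV939 (1 µM). All groups, the 0h group included, had 250 nM of the FGF receptor inhibitor PD17 for 2 h beforehand. The 0h group (n = 3) had no 4OHT, the 2h and 4h groups (n = 4 each) had 250 nM 4OHT for 2 h or 4 h, and the rev group (n = 4) had 4 h of 4OHT followed by 2 h with a MEK inhibitor, which the labels do not name. The line was represented by 2 clones, clone 4 and clone 8, with 1 and 2 samples at 0h and 2 samples of each in the other groups. Another 0h sample was discarded in the authors' quality control. No group without the construct, and none with 6 h of 4OHT and no MEK inhibitor, was among the samples, so time and MEK inhibition cannot be told apart in rev. The labels do not say that samples of a clone came from separate cultures, so p-values measure the spread between these samples.

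The 4h libraries held 1552022 to 6658950 counts, fewer than the 8667880 to 13004556 of all others. Of these, the proteasome genes received 2769 to 8257 counts per library at 4h and 16495 to 44896 elsewhere. Mitochondrial genes took 7.21 to 12.4% of the counts at 4h and 2.67 to 6.98% in the other libraries. Rows of ribosomal RNA took 30.0 to 44.1% at 4h and 15.8 to 41.8% in the others. Without mitochondrial genes and the 20 genes with most counts, 523950 to 1453556 counts remained per library at 4h and 2301632 to 6213794 elsewhere. ERK targets rose with induction but did not all follow the labels alike. Spry4, which encodes a feedback inhibitor, was at 0.856 ± 0.123 CPM (SD, n = 3) before induction. In the order of 2h, 4h and rev it was at 91.1 ± 34.5, 70.4 ± 34.2 and 14 ± 4.28 CPM (SD, n = 4 each). From 0h to rev in that order, Dusp6 averaged 3.35, 152, 57.4 and 19.9 CPM, and Egr1 1.97, 599, 119 and 71.3. In 4h vs 2h Spry4, Dusp6 and Egr1 were lower, at log2 fold changes of -0.42, -1.49 and -2.54. In rev vs 4h Spry4 and Dusp6 were lower, but Egr1 was not called (-0.53, adjusted p = 0.437 by edgeR's quasi-likelihood test). The summed level of 7 EpiLC markers was 1174 to 1413 CPM at 0h, 1091 to 1301 at 2h, 700.0 to 841 at 4h and 957 to 1064 in rev. Of these markers 4 were lower and 3 higher in 4h vs 0h: Dnmt3b, which leads the sum, averaged 935 ± 109 CPM before induction (SD, n = 3) and 416 ± 17.9 in the 4h group (SD, n = 4), whereas the log2 fold changes of Sox2, Nanog and Otx2 were 2.34 (adjusted p = 4.18e-11), 1.71 (adjusted p = 0.0101) and 1.13 (adjusted p = 3.98e-06). Nanog spread from 14.05 to 88.3 CPM at 4h, and its lowest 4h library lay within the 0h range of 13.97 to 14.42. Over the same groups, 5 naive pluripotency markers summed to 15.7 to 22.9, 17.4 to 23.8, 37.0 to 136 and 18 to 27.3 CPM. The neural markers Sox1 and Pax6 summed to 2.38 to 4.85, 3.16 to 3.75, 37.9 to 50.5 and 6.95 to 10.1 CPM. Lists for primitive endoderm, mesendoderm, trophoblast and fibroblasts reached at most 15.4 CPM in sum, with Elf5 and Col1a2 at 0 in every 4h library. The part of these shifts in cell state, depth and mitochondrial share in the results below was not tested. In bulk RNA, less of a transcript per cell and fewer cells that hold it cannot be told apart.

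Levels are given in CPM, the count of a gene scaled to a common library size that TMM (trimmed means of M-values) adjusts for composition. Of the 49 genes, 47 passed the filter on low counts and were tested. Psmb8, the inducible chymotrypsin-like subunit, had 0 to 11 counts per library, and Psmb11, the thymus-specific subunit, had 0 to 4. The median level over all 15 libraries was 42.6 CPM for the tested proteasome genes and 8.62 CPM for all 13451 tested genes. On a scale of CPM per kilobase of exon, the highest levels of proteasome genes at 0h were those of Psmb6 (70.9), Psmd7 (58.7) and Psma7 (56.7). The lowest among tested proteasome genes were those of Psmb9 (0.907), Psma8 (1.61) and Psmd10 (2.41). The 14 standard core subunits lay within 5.93-fold of each other on that scale and the 17 subunits of the 19S regulator within 3.06-fold. Values by library are given for 0h in the order clone4_1, clone8_1 and clone8_2, and for the other groups in the order clone4_1, clone4_2, clone8_1 and clone8_2. As a description, the TMM-scaled log2 levels of pairs of tested proteasome genes had a median Pearson's r of 0.55 over all 15 libraries and of 0.30 over the 11 libraries outside 4h. These pairs share the depth and composition of each library.

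The time course asked how transcripts change as ERK activity is induced and then withdrawn. Transcripts of most core and 19S subunits were lower at 4h than in the earlier groups and near their starting level in rev, whereas Psma8 and Psme3 were higher at 4h (with total count scaling Psma8 was not called and the direction of Psme3 turned). At 4h vs 2h, 33 of 47 genes were lower and 2 higher by edgeR's quasi-likelihood test (adjusted p under 0.05), where 19.2% of all tested genes were lower and 19.7% higher. At 4h vs 0h, 30 were lower and 3 higher, where 18.9% of all genes were lower and 20.5% higher. In rev vs 4h, 31 were higher and 2 lower, with 15.1% of all genes higher and 15.6% lower. The median log2 fold change of the proteasome genes was -0.53, -0.43 and 0.44 in these comparisons, and that of all tested genes -0.01, 0.03 and 0.02. These comparisons share the 4 libraries of the 4h group. With each library scaled by its total count instead of TMM, the median of all genes moved to -0.73 in 4h vs 0h, -0.57 in 4h vs 2h and 0.45 in rev vs 4h, and that of the proteasome genes lay 0.46 and 0.49 below and 0.40 above it. The totals used in that scaling include the counts of ribosomal RNA and mitochondrial rows. After every library was thinned to the smallest total, 43 proteasome genes passed the filter, and 5 of them were called in 4h vs 0h (4.99% of all genes), 4 in 4h vs 2h (4.25%) and 2 in rev vs 4h (2.33%), with medians of -0.38, -0.41 and 0.38.

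In single libraries, the summed level of the 14 standard core subunits was 629, 573 and 559 CPM (0h) and 674, 654, 582 and 657 (2h). It was 347, 416, 439 and 372 (4h) and 617, 620.0, 644 and 571 (rev), so every 4h library was below every other library. The 4h mean was 67% of the 0h mean for these core subunits, 78.5% for the 17 subunits of the 19S regulator and 84.6% for the 7 assembly chaperones. For the 5 activators and inhibitors it was 121%, a sum that Psme4 and Psme3 dominate, and total count scaling turned the direction of both. The same 4 sums were 109%, 105%, 101% and 121% of the 0h mean at 2h and 104%, 99.5%, 103% and 121% in rev. The activator and inhibitor sum was thus alike at 2h and 4h, but its genes moved apart. From 2h to 4h the mean of Psme3 went from 92.5 to 118.8 CPM. That of Psme4 went from 236 to 219 CPM and that of Psme2 from 13.2 to 4.80 CPM. As a share of the counts that remain without mitochondrial genes and the 20 genes with most counts, which does not rest on TMM, the 49 genes took 0.694% ± 0.0359 in the 0h group (SD, n = 3). For 2h, 4h and rev this share was 0.715% ± 0.0372, 0.551% ± 0.0241 and 0.711% ± 0.0253 (SD, n = 4 each).

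**Figure D1:**
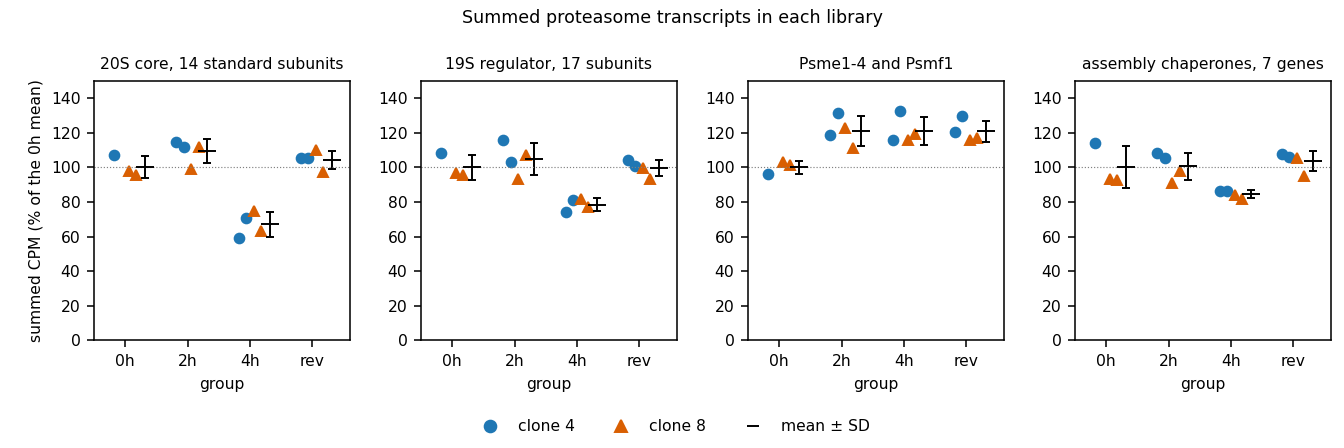
Summed level (TMM-scaled CPM, y axis, as percent of the 0h mean) of 4 classes of proteasome genes in each library by group (x axis); circles are clone 4, triangles clone 8, and black bars the mean and SD. The core and 19S sums of all 4h libraries lie below those of every other library, with 4h means of 67% and 78.5%; the activator sum is led by Psme4 and Psme3, whose direction at 4h turned with total count scaling.

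All 7 standard alpha subunits, Psma1 to Psma7, were lower at 4h than in 0h or 2h and higher in rev vs 4h. Psma7 (ENSMUSG00000027566, chr2:180036374-180042433 of mm10) fell the most of them. It had 71.8, 66.6 and 62.4 CPM (0h), 74.3, 66.2, 62.8 and 74.3 (2h), 25, 27.2, 32.1 and 29.8 (4h) and 70.8, 58.4, 63.2 and 57.2 (rev). The 4h libraries were all below the lowest of the other 11. Its log2 fold change was -1.23 (SE 0.110, adjusted p = 2.67e-08) in 4h vs 0h, -1.28 (SE 0.104, adjusted p = 5.64e-09) in 4h vs 2h and 1.12 (SE 0.104, adjusted p = 6.53e-08) in rev vs 4h. Psma5 came next, with 30.1, 24.3 and 25.1 CPM (0h), 33.6, 27.8, 24.2 and 33.7 (2h), 17.1, 15.1, 14.6 and 9.42 (4h) and 29.3, 24.5, 27.9 and 22 (rev). Again no 4h library reached any other. The log2 fold change of Psma5 in 4h vs 2h was -1.10 (SE 0.145, adjusted p = 4.47e-06), that of Psma6 -1.04, and those of Psma2, Psma3 and Psma1 -0.72, -0.68 and -0.61. Psma4 moved least, at -0.39 (adjusted p = 0.0017). The calls of Psma1 and Psma4 in 4h vs 0h were lost without the 0h library clone4_1, the single clone 4 sample of its group, at log2 fold changes of -0.31 and -0.19. That of Psma4 was also lost without 4h clone4_1, without 4h clone4_2, with no clone term, with the replicate block, from the groups compared alone, with the older edgeR method and after all libraries were thinned to the total of the smallest, where its sign turned.

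Psma8, the alpha subunit that replaces Psma7 in testis proteasomes, went the other way. It had 2.05, 2.87 and 3.27 CPM (0h), 3.29, 2.92, 3.05 and 3.05 (2h), 4.89, 5.43, 10.7 and 9.05 (4h) and 3.15, 3.2, 4.79 and 3.01 (rev). All 4h libraries were above all others, those of clone 8 more so, and the low counts behind these values were 8 to 47 per 4h library. Its log2 fold change was 1.54 (SE 0.240, adjusted p = 3.8e-05) in 4h vs 0h, 1.27 (SE 0.221, adjusted p = 0.000114) in 4h vs 2h and -1.08 (SE 0.221, adjusted p = 0.000783) in rev vs 4h. With total count scaling the change in 4h vs 0h was 0.78 and did not pass the test (adjusted p = 0.0684), nor did those in 4h vs 2h (0.70, adjusted p = 0.0896) and rev vs 4h (-0.64, adjusted p = 0.162). At 4h the level of Psma8 per kilobase of exon was 4.44 CPM, against 24.2 for Psma7.

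Among the 7 standard beta subunits, 6 were lower in 4h vs 2h, and against 0h 5 were. The catalytic subunits are Psmb6 (caspase-like), Psmb7 (trypsin-like) and Psmb5 (chymotrypsin-like). Psmb6 (ENSMUSG00000018286, chr11:70525367-70527858) had 64.2, 54 and 51.5 CPM (0h), 71.7, 61.7, 44.1 and 58.9 (2h), 31.8, 40.2, 38 and 34.7 (4h) and 58.4, 52.6, 57.9 and 49.8 (rev). Its 4h libraries were all below the others, with a log2 fold change of -0.66 (SE 0.123, adjusted p = 0.000244) in 4h vs 0h and 0.59 (SE 0.115, adjusted p = 0.000524) in rev vs 4h. Psmb5 (ENSMUSG00000022193, chr14:54614119-54618022) was less abundant, at 14.7, 14.6 and 12.6 CPM (0h), 17.9, 11.5, 11 and 18.2 (2h), 8.55, 7.65, 9.79 and 9.8 (4h) and 13.9, 12.4, 16.8 and 13.6 (rev). Its 2h libraries spread widely, and the 4h libraries again lay below all others. The log2 fold change of Psmb5 was -0.72 (SE 0.173, adjusted p = 0.00245) in 4h vs 2h and -0.64 (SE 0.184, adjusted p = 0.00909) in 4h vs 0h, where it was -0.55 (adjusted p = 0.0635) without the 0h library clone4_1.

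Psmb7 (ENSMUSG00000026750, chr2:38588036-38644087), which shares 405 exonic bases with Nek6 on the opposite strand, followed another course. It had 28.9, 25.7 and 24 CPM (0h), 33.1, 41.8, 31.3 and 32.7 (2h), 20.8, 28.6, 29.4 and 25.3 (4h) and 33.8, 36.3, 40.3 and 31.2 (rev). The 4h values overlapped those at 0h, and all 2h and rev libraries lay above those at 0h. Its log2 fold change was -0.40 (SE 0.124, adjusted p = 0.0136) in 4h vs 2h and 0.43 (SE 0.125, adjusted p = 0.011) in rev vs 4h, while in 4h vs 0h it was -0.01 (adjusted p = 0.967). Without 4h clone4_1 the change in 4h vs 2h was -0.30 (adjusted p = 0.056), and without rev clone8_1 that in rev vs 4h was 0.33 (adjusted p = 0.0709). Of the structural subunits, Psmb4 had 65.1, 62.8 and 51.7 CPM (0h), 76.7, 60.5, 52.2 and 70.5 (2h), 29.3, 27.2, 37.8 and 25.3 (4h) and 66.1, 55, 63.6 and 50.8 (rev). Its 4h libraries were below all others. Psmb4 fell by 1.11 on the log2 scale in 4h vs 2h and Psmb1 and Psmb3 by 0.47 and 0.40, with values of Psmb3 that overlapped between 2h and 4h. The call of Psmb3 was lost in 1 of 8 fits without 1 library (largest adjusted p = 0.0669, without 4h clone8_2). Psmb2 was at 39.6 ± 2.91 CPM in the 2h group against 36 ± 4.38 in the 4h group (SD, n = 4 each) and was called in no group comparison.

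The inducible beta subunits replace the catalytic ones in the immunoproteasome, which interferon induces and which favours peptides for MHC class I. Psmb10 (ENSMUSG00000031897, chr8:105935735-105938444), the counterpart of Psmb7, had 12.4, 10.8 and 12 CPM (0h), 12.5, 9.2, 6.37 and 10.2 (2h), 3.67, 3.95, 4.55 and 4.52 (4h) and 10.5, 8.05, 11.1 and 6.33 (rev). The 4h libraries, with 6 to 20 counts each, lay below all others. Its log2 fold change was -1.49 (SE 0.224, adjusted p = 2.49e-05) in 4h vs 0h, -1.17 (SE 0.214, adjusted p = 0.0002) in 4h vs 2h and 1.08 (SE 0.215, adjusted p = 0.000613) in rev vs 4h. In 1 draw of libraries thinned to the smallest total it was 0.11 in 4h vs 2h and -0.35 in rev vs 4h, neither of which passed the test. Psmb9, the counterpart of Psmb6, had 12 to 22 counts per library at 0h and 0 to 3 at 4h. Its fall in 4h vs 0h passed the test (adjusted p = 0.0318) but was lost in 5 of 7 fits without 1 library, with adjusted p of 0.052 to 0.0798, and with DESeq2 (0.0888). Psmb9 shares 212 exonic bases with Tap1 on the opposite strand, and how the counting treated strand is not given in the sources used here.

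**Figure D2:**
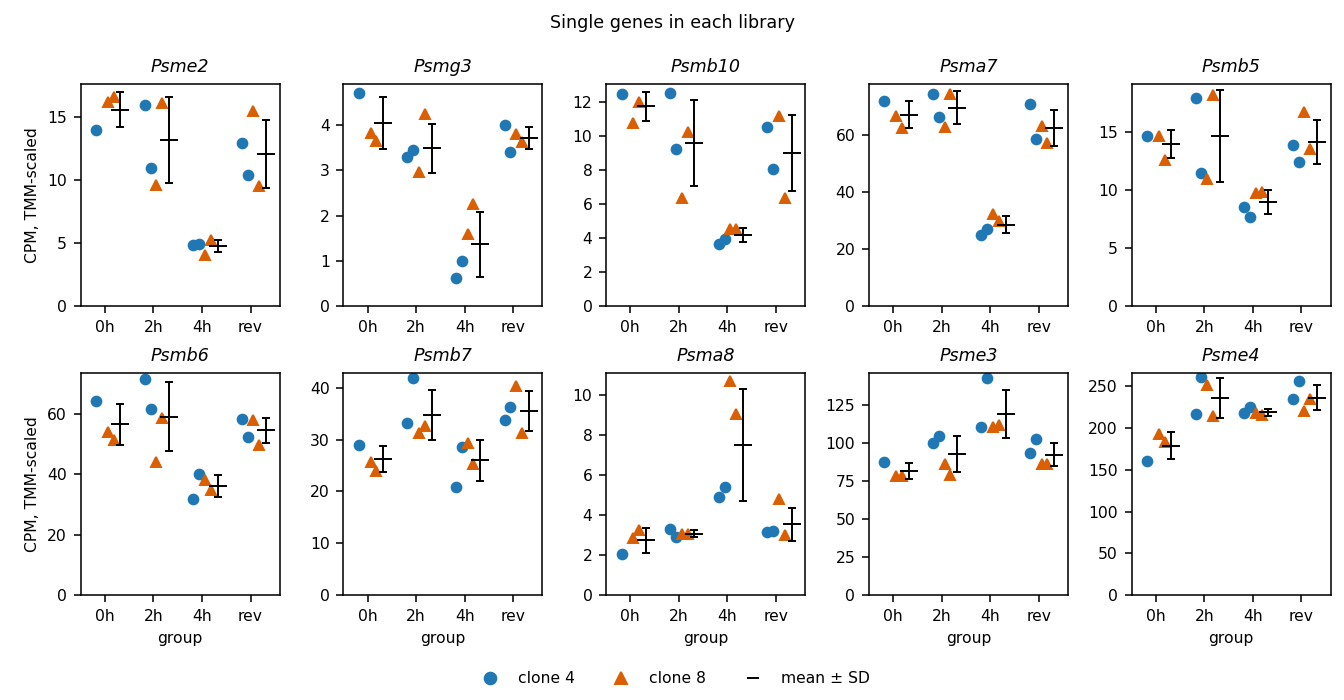
Level (TMM-scaled CPM, y axes from 0) of 10 genes in each library by group (x axes); circles are clone 4, triangles clone 8, and black bars the mean and SD. The 4h libraries of Psme2, Psmg3, Psmb10, Psma7, Psmb5 and Psmb6 lie below all other libraries, and those of Psma8 above them, on TMM-scaled libraries.

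All 6 ATPases of the 19S base, Psmc1 to Psmc6, were lower at 4h than in either earlier group, and 5 of them, all but Psmc1, were higher in rev vs 4h. Their log2 fold changes in 4h vs 2h lay between -0.74 (Psmc3) and -0.27 (Psmc1, whose 2h and 4h values overlapped). The call of Psmc1 was lost in 2 of 8 fits without 1 library (largest adjusted p = 0.0898, without 4h clone4_1). Psmc3 had 105, 85.2 and 79.8 CPM (0h), 109.6, 75, 65.1 and 96.9 (2h), 38.5, 59.7, 53.5 and 53.9 (4h) and 86.2, 71.1, 78.4 and 65.9 (rev). Its 4h libraries were all below the lowest 2h value, and the spread within 2h was wide. Psmc3 shares 215 exonic bases with Slc39a13. The calls of Psmc1 and Psmc5 in 4h vs 0h were lost without 0h clone4_1, at -0.27 and -0.33. That of Psmc1 was also lost without 0h clone8_2, without 4h clone4_1, without 4h clone8_2, with no clone term, with the replicate block and after thinning. Psmc3ip, the recombination cofactor, was lower in 4h vs 2h as well, at -0.59 (SE 0.197, adjusted p = 0.0214). That call was lost in 3 of 8 fits without 1 library (largest adjusted p = 0.0775, without 4h clone4_1).

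Of the 11 non-ATPase subunits, 7 were lower in 4h vs 2h (Psmd1, Psmd2, Psmd4, Psmd6, Psmd7, Psmd13 and Psmd14). The largest fall was that of Psmd14 (ENSMUSG00000026914, chr2:61711694-61800376), the deubiquitinase of the 19S lid that cuts ubiquitin chains from substrates. It had 49.1, 44.4 and 44.2 CPM (0h), 51.6, 51.6, 50.6 and 59.1 (2h), 19.5, 27.2, 26.2 and 24.5 (4h) and 51.7, 50.1, 48.2 and 46.8 (rev). The 4h libraries were well below all others, with a log2 fold change of -1.12 (SE 0.104, adjusted p = 4.25e-08) in 4h vs 2h and 1.00 (SE 0.104, adjusted p = 3.16e-07) in rev vs 4h. Psmd13, another lid subunit, which shares 342 exonic bases with Sirt3, had 50.5, 41.7 and 40.2 CPM (0h), 49, 35.2, 36.8 and 47 (2h), 24.4, 18.5, 24.6 and 20.4 (4h) and 40.8, 37.1, 38.2 and 36.5 (rev). No 4h library reached the level of any other. In 4h vs 2h Psmd13 fell by 0.94 and the lid subunit Psmd6 by 0.84 on the log2 scale. The ubiquitin receptor Psmd4 fell by 0.53 and the scaffold subunits Psmd2 and Psmd1 by 0.54 and 0.27. Psmd1 was not called in 4h vs 0h, at -0.08 (SE 0.0812, adjusted p = 0.442).

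Not all lid subunits were called. In the main test, on TMM-scaled libraries, Psmd3, Psmd8, Psmd11 and Psmd12 were called in none of the group comparisons. Psmd3 had 92.7, 79.3, 63 and 84.5 CPM (2h) and 78.2, 74.5, 92.9 and 89 (4h), which overlap, and a log2 fold change of 0.07 (SE 0.107) in 4h vs 2h. In all, 10 of the 47 genes were called in no group comparison, the other 6 being Psmb2, Psmd5, Psmd9, Psmd10, Psmf1 and Psmg2. Their log2 fold changes in 4h vs 2h lay between -0.39 and 0.21. With total count scaling 6 of these 10, among them Psmd8, Psmd11 and Psmd12, were called lower in 4h vs 2h. That scaling also called Psmd3 lower in 4h vs 0h. It moved the median of all genes down in both comparisons, and the share of all genes it called lower is not reported here.

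**Figure D3:**
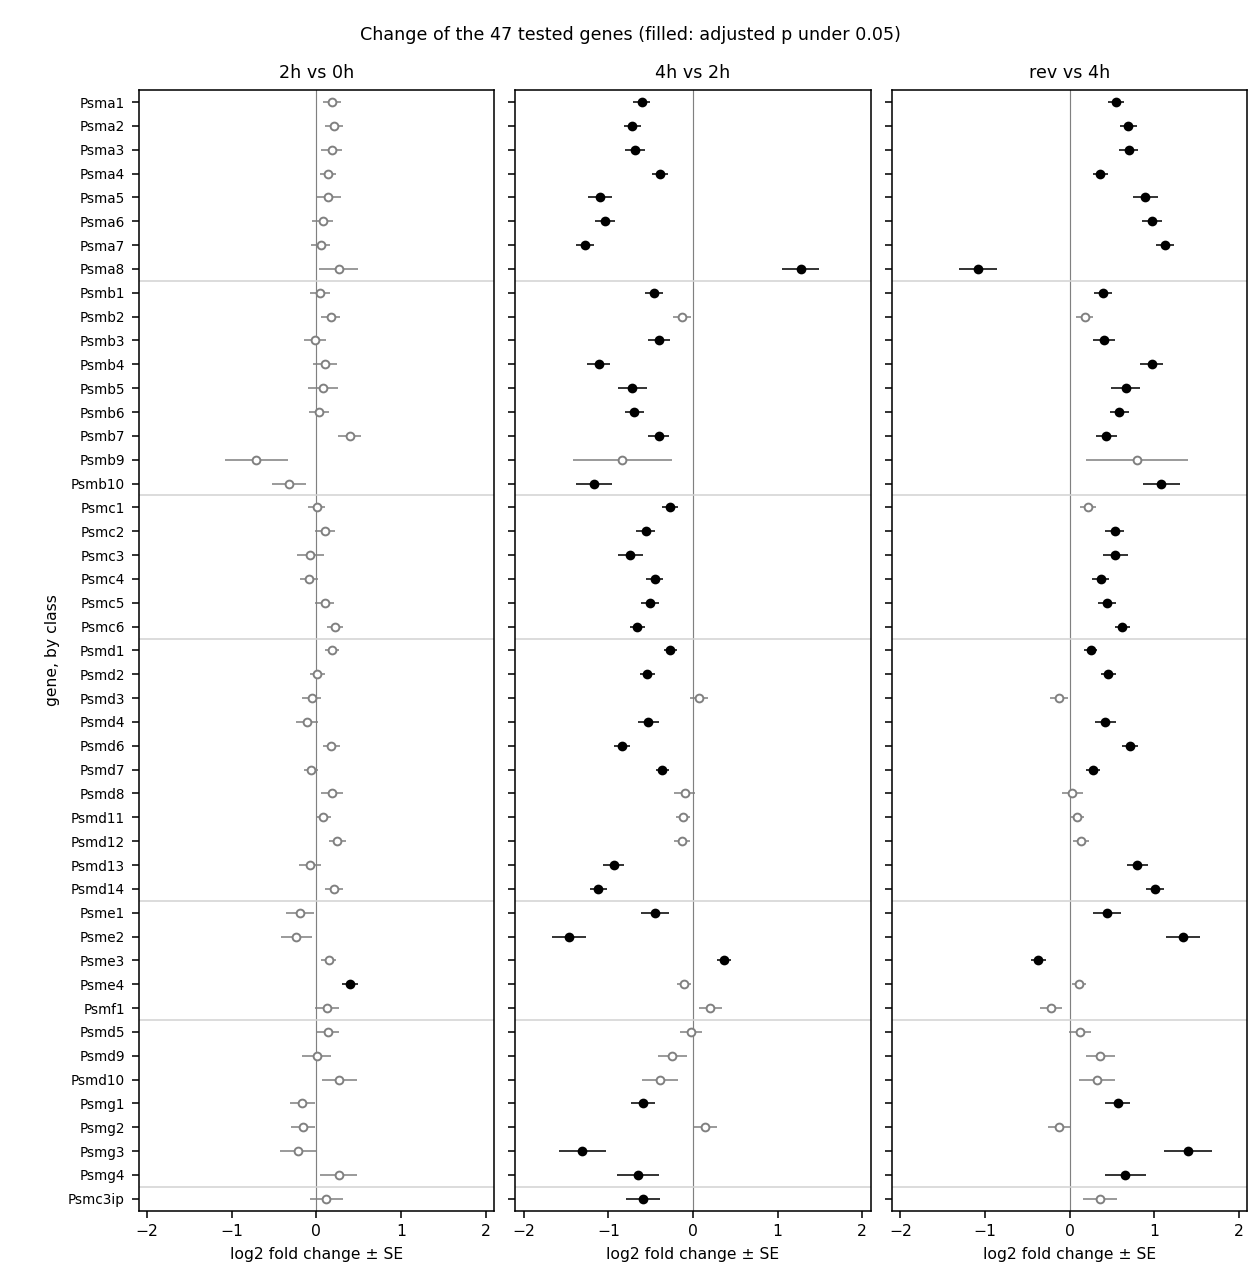
Log2 fold change (x axes) with its SE for each of the 47 tested genes (y axis, in classes separated by grey lines) on TMM-scaled libraries, from left to right for 2h vs 0h, for 4h vs 2h and for rev vs 4h; filled points passed an adjusted p of 0.05 in edgeR's quasi-likelihood test. In 4h vs 2h 33 filled points lie left of 0 and 2, Psma8 and Psme3, right of it (with total count scaling Psma8 was not called and Psme3 turned), and in rev vs 4h 31 lie right of 0 and 2 left.

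The activators split by type. Psme1 and Psme2 form PA28 alpha-beta, the interferon-inducible cap, Psme3 forms the nuclear PA28 gamma, and Psme4 is PA200, which is known from histone degradation and DNA repair. Psme2 (ENSMUSG00000079197, chr14:55587441-55591113) had the largest fall of the tested proteasome genes in 4h vs 0h. It had 14, 16.2 and 16.6 CPM (0h), 16, 11, 9.59 and 16.2 (2h), 4.89, 4.94, 4.1 and 5.28 (4h), where 8 to 20 counts stood behind each value, and 13, 10.4, 15.5 and 9.55 (rev). The 4h libraries were below all others, and the log2 fold change was -1.70 (SE 0.211, adjusted p = 2.35e-06) in 4h vs 0h, -1.47 (SE 0.201, adjusted p = 6.89e-06) in 4h vs 2h and 1.34 (SE 0.201, adjusted p = 3.15e-05) in rev vs 4h. Psme2b, a near copy of Psme2 that is not among the 49 genes, had 0 to 6 counts per library. Psme1 fell by 0.64 on the log2 scale in 4h vs 0h, and its 4h values of 9.16, 15.3, 9.33 and 11.7 CPM overlapped those at 2h. The call of Psme1 in 4h vs 2h was lost in 5 of 8 fits without 1 library (largest adjusted p = 0.141, without 4h clone8_1).

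Psme3 (ENSMUSG00000078652, chr11:101316213-101323537) had 87.3, 78.4 and 77.9 CPM (0h), 100.1, 105, 86.2 and 79.1 (2h), 111, 143, 110.2 and 112 (4h) and 93.2, 102, 86.4 and 86.3 (rev). All 4h libraries were above all others, 4h clone4_2 farthest. The log2 fold change was 0.51 (SE 0.0935, adjusted p = 0.000187) in 4h vs 0h, 0.37 (SE 0.0853, adjusted p = 0.0017) in 4h vs 2h and -0.37 (SE 0.0854, adjusted p = 0.00226) in rev vs 4h, values that total count scaling turned to -0.22, -0.16 and 0.04. After thinning none of these passed the test (adjusted p = 0.445, 0.415 and 0.203), and without the filter on low counts the value in 4h vs 2h did not (0.26, adjusted p = 0.059). Psme4 (ENSMUSG00000040850, chr11:30771726-30880361) had the highest CPM of the genes, 161, 192 and 183 (0h), 217, 261, 252 and 214 (2h), 218, 225, 218 and 216 (4h) and 235, 256, 221 and 235 (rev). Each library after induction lay above each 0h library. Its log2 fold change in 4h vs 0h was 0.29 (SE 0.0910, adjusted p = 0.0145), which turned to -0.42 with total count scaling and did not pass the test after thinning (0.54, adjusted p = 0.0659), without 0h clone4_1 (0.19, adjusted p = 0.18), without 0h clone8_2 (0.26, adjusted p = 0.0568) or without the filter on low counts (0.17, adjusted p = 0.272). Psmf1, the inhibitor PI31, had 14.7, 21.7, 17.3 and 24.5 CPM (4h) and 16.2, 15.5 and 15 (0h), a difference that did not pass the test (adjusted p = 0.07).

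Of 7 assembly chaperones, 3 were lower in 4h vs 2h, and against 0h 2 were, where 19.2% and 18.9% of all genes were lower. Psmg1 to Psmg4 build the core ring by ring, and Psmd5, Psmd9 and Psmd10 (also named S5b, p27 and gankyrin) assemble the 19S base. Psmg3 (ENSMUSG00000029551, chr5:139823592-139826885) fell the most. It had 4.7, 3.81 and 3.63 CPM (0h), 3.29, 3.45, 2.97 and 4.23 (2h), 0.611, 0.987, 1.59 and 2.26 (4h) and 3.99, 3.41, 3.81 and 3.63 (rev). Psmg3 shares 280 exonic bases with Gm26938 on its own strand. The 4h values rest on 1 to 7 counts per library and lie below all others, with a log2 fold change of -1.52 (SE 0.287, adjusted p = 0.000267) in 4h vs 0h, -1.31 (SE 0.279, adjusted p = 0.000809) in 4h vs 2h and 1.40 (SE 0.280, adjusted p = 0.000653) in rev vs 4h. Psmg1, the partner of Psmg2, fell by 0.59 on the log2 scale in 4h vs 2h (adjusted p = 0.00232) and Psmg4, the partner of Psmg3, by 0.65 (adjusted p = 0.0397). The call of Psmg4 was lost in 4 of 8 fits without 1 library (largest adjusted p = 0.166, without 4h clone4_2). Psmg2 was at 11.8 ± 1.1 CPM in the 2h group against 13.1 ± 2.16 in the 4h group (SD, n = 4 each). None of the 3 base chaperones was called in a group comparison.

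Exon length moved with these changes. The merged exons of the tested proteasome genes had a median of 1469 bases, against 3434 over the tested protein-coding genes. Of 24 proteasome genes under 1500 bases, 20 were lower in 4h vs 2h, with a median log2 fold change of -0.63, while of 1350 other protein-coding genes of such length 32.1% were lower, with a median of -0.27. From 1500 to under 3000 bases the medians were -0.45 for 18 proteasome genes and -0.05 for 3685 others. At 3000 bases or more, with 5 proteasome genes, they were -0.11 and 0.07. Across the 47 genes, which share the same libraries, the log2 fold change in 4h vs 2h and exon length had a Pearson's r of 0.41, and across 12178 protein-coding genes of 0.13. Whether length, the shallower 4h libraries or their RNA bears on the changes was not tested. Of 13 tested genes that share exonic bases with another gene, 10 were lower in 4h vs 2h, as were 23 of the 34 that share none.

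**Figure D4:**
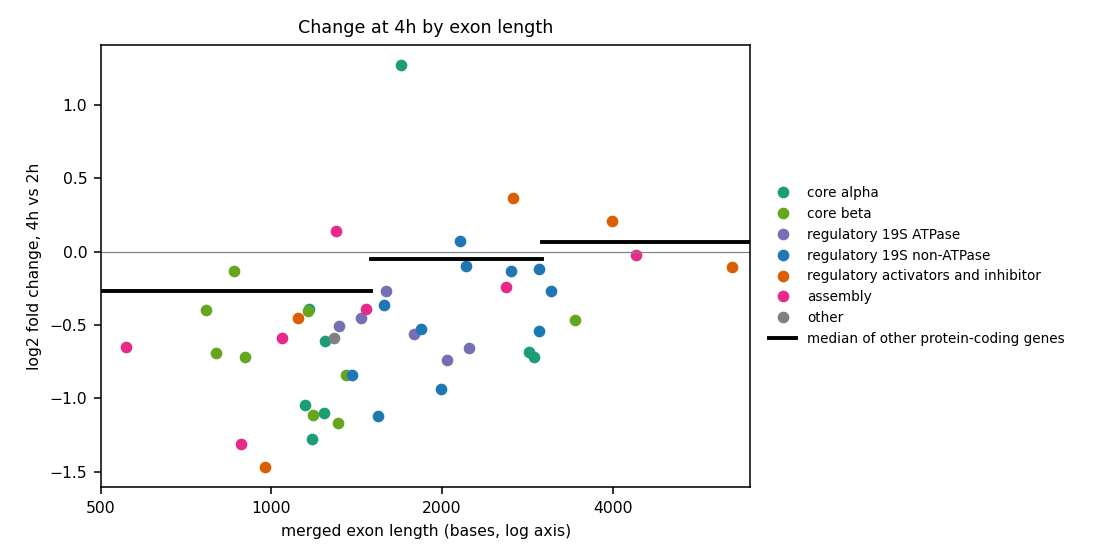
Log2 fold change in 4h vs 2h (y axis, TMM-scaled libraries) against merged exon length in bases (x axis, log scale) for the 47 tested genes, coloured by class; black lines are medians of the other tested protein-coding genes under 1500, from 1500 to under 3000 and of 3000 bases or more. Most points under 3000 bases lie below the black line of their length.

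The 2h group stood close to 0h. In 2h vs 0h 1 of 47 genes was higher and 0 were lower with edgeR, where 3.98% of all genes were higher and 2.46% lower; 5 had an unadjusted p under 0.05 (21.1% of all genes), and DESeq2 called 2 (9.39% of all genes). The median log2 fold change was 0.10, against 0.01 over all genes. The gene called was Psme4, at 0.40 (SE 0.0909, adjusted p = 0.0094), a call that was lost without 0h clone4_1 (0.30, adjusted p = 0.149), with total count scaling (0.20, adjusted p = 0.879) and after thinning (0.50, adjusted p = 0.291). DESeq2 called Psmb7 as well, whose log2 fold change in the main test was 0.39 (SE 0.132, adjusted p = 0.079).

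After the MEK inhibitor, few genes differed from 0h. The fit held all 15 samples, so the 4h libraries entered its filter, scaling and estimate of spread. In rev vs 0h 2 of 47 genes were higher and 0 lower with edgeR, where 6.49% of all genes were higher and 4.66% lower; 3 had an unadjusted p under 0.05 (26.5% of all genes), and DESeq2 called 2 (14.5% of all genes). The median log2 fold change was 0.03, against 0.02 over all genes. A fit of the rev and 0h libraries alone called 4 genes, with Psmc3 and Psmd13 added. Their mean levels were 90 and 44.1 CPM at 0h and 75.4 and 38.2 CPM in rev. The share of all genes called in that fit is not reported here. In the main test of rev vs 0h, Psme4 was at 0.40 (SE 0.0911, adjusted p = 0.00597) and Psmb7 at 0.43 (SE 0.132, adjusted p = 0.0412). Psme4 was not called without 0h clone4_1 (0.30, adjusted p = 0.112), with total count scaling (0.081, adjusted p = 0.889) or after thinning (0.55, adjusted p = 0.169). Psmb7 was not called in 6 of 7 fits without 1 library, at log2 fold changes of 0.30 to 0.49 and adjusted p of 0.0522 to 0.185. The genes that were lowest at 4h had in rev vs 0h values of -0.36 (Psme2, adjusted p = 0.23), -0.40 (Psmb10, adjusted p = 0.204), -0.12 (Psmg3) and -0.10 (Psma7).

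Levels fell at 4h in each clone. In 4h vs 2h the median log2 fold change was -0.59 in clone 4, with 30 genes lower and 0 higher, where 13.8% of all genes were lower and 13.5% higher. In clone 8 it was -0.47, with 23 lower and 2 higher, where 13.1% of all genes were lower and 13.9% higher. The medians of all genes were -0.023 and -0.017, and 41 of the 47 genes were below 0 in both clones. In rev vs 4h the medians were 0.51 and 0.41, against 0.026 and 0.019 over all genes, and 40 genes were above 0 in both clones. The share of all tested genes on the same side in both clones is not reported here. Psmg3 changed by -1.94 in clone 4 and -0.95 in clone 8 in 4h vs 2h, and Psma8 by 0.75 and 1.70. For Psma7 these values were -1.42 and -1.15, and for Psme2 -1.45 and -1.48. With regard to a clone difference in the response, 0 of 47 genes were called by edgeR's interaction test, jointly over the time course (3.18% of all genes called), in 4h vs 2h (3.14%) or in rev vs 4h (2.8%). DESeq2 called 0 as well, with 2.75, 1.87 and 1.67% of all genes called. With an unadjusted p under 0.05 there were 0, 4 and 2 genes, against 12.7, 14.8 and 14% of all genes.

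Between the clones themselves, over all groups, 0 of 47 genes were higher and 3 lower in clone 8, where 10.4% of all genes were higher and 8.11% lower. Psmd7 had 107, 83.7 and 87.8 CPM (0h), 98.1, 102, 82.7 and 85.1 (2h), 72.7, 80.2, 68.7 and 63.7 (4h) and 97.2, 97.2, 74.3 and 78.8 (rev). In each group every clone 4 sample lay above every clone 8 sample. Its log2 difference, clone 8 vs clone 4, was -0.28 (SE 0.0570, adjusted p = 0.00146). For Psme3 it was -0.21 (SE 0.0628, adjusted p = 0.0194) and for Psmd11 -0.19 (SE 0.0589, adjusted p = 0.0244). Psmd11 had 107, 87.6 and 90.6 CPM (0h), 119.7, 106, 91.3 and 95.5 (2h), 94.7, 104, 95.4 and 84.8 (4h) and 105, 105, 96.4 and 97.1 (rev). Its clone difference was not called without 0h clone4_1 (-0.18, adjusted p = 0.0772), 0h clone8_1 (-0.18, adjusted p = 0.0528) or 2h clone8_1 (-0.18, adjusted p = 0.0513).

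**Figure D5:**
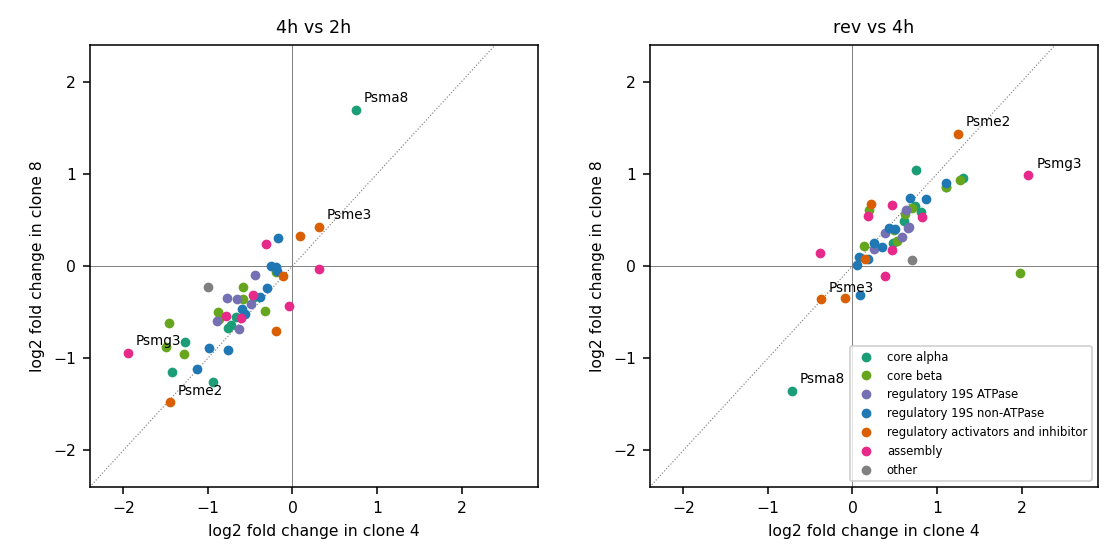
Log2 fold change in clone 4 (x axes) and clone 8 (y axes) of the 47 tested genes, coloured by class, for 4h vs 2h and rev vs 4h on TMM-scaled libraries; the dotted line marks equal change. In 4h vs 2h 41 genes lie below 0 in both clones, and in rev vs 4h 40 lie above 0 in both. The shares of all tested genes on these sides are not reported here.

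Because most of these genes moved together, their promoters were searched for letters of factors known from proteasome or ERK target genes. RefSeq (GRCm38.p6) gave the 250 bases before the start for 41 of the 49 genes. On both strands, the ETS core CCGGAAG was present in 13 of them (31.7%), against 7.83% of 27025 genes with such a window and 15.9% of 9890 tested genes. Matches to CCAAT, the NF-Y box, were found in 15 (36.6%), against 37.5% and 41.3%. TGACNNNGC, the antioxidant response core that NFE2L1 and NFE2L2 bind with MAF partners, was in 5 (12.2%, against 11.5% and 14.1%). GCATGCGC, of nuclear respiratory factor 1, was in 2 (4.88%, against 2.56% and 5.28%), and the AP-1 letters TGANTCA were in 1 (2.44%, against 7.82% and 5.11%). In 4h vs 2h, 9 of 13 genes with the ETS letters and 20 of 26 tested genes without them were lower, with median log2 fold changes of -0.54 and -0.67. A match describes the letters only.

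Windows of 120 bases are shown for 7 genes with the ETS letters and for the catalytic subunits Psmb5 and Psmb6, which hold the antioxidant response core. They were chosen after the values were seen, to set genes that fell (Psmd2, Psmd6, Psmc6 and Psmg1) beside Psme3 and Psme4, which were higher at 4h than at 0h and whose direction turned with total count scaling, and Psmd11, which was not called. Each runs 5′ to 3′ on the strand of its gene and ends 1 to 40 bases before the RefSeq start, at most 10 bases inside the GENCODE gene where that begins earlier. Capitals mark matches to any of the 5 sets of letters on either strand (CTTCCGG is the ETS core, and ATTGG the NF-Y box, read on the other strand). The positions are chr11:101316093-101316212 (plus strand), chr11:30771616-30771735 (plus), chr16:20651532-20651651 (plus), chr14:14120975-14121094 (minus), chr14:45329678-45329797 (plus), chr16:95990961-95991080 (minus), chr11:80428495-80428614 (plus), chr14:54618013-54618132 (minus) and chr11:70525237-70525356 (plus), in the order of the lines.
Psme3: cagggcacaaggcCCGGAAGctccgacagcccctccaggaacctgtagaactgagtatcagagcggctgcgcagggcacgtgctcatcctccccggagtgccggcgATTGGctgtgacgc
Psme4: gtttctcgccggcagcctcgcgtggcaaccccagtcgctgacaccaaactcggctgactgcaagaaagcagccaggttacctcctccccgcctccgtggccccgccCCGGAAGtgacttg
Psmd2: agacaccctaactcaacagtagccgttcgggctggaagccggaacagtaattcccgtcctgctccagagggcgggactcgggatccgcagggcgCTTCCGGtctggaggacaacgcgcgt
Psmd6: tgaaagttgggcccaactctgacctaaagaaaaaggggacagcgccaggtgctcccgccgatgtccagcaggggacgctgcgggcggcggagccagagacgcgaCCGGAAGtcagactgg
Psmc6: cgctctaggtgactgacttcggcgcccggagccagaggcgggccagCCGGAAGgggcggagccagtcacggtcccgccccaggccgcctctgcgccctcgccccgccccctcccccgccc
Psmg1: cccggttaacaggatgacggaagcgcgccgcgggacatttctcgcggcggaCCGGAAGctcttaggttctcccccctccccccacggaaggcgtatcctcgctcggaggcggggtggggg
Psmd11: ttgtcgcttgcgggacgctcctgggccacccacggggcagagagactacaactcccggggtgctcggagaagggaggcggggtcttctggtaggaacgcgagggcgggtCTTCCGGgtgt
Psmb5: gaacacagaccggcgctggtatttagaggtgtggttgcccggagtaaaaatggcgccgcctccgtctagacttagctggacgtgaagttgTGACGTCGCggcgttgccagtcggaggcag
Psmb6: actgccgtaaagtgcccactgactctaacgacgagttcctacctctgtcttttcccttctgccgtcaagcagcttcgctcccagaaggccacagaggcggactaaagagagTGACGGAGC

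The counts for genes that act with the proteasome stand beside the 19.2% of all genes lower and 19.7% higher in 4h vs 2h. Of 16 associated factors, 4 were lower and 1 higher, with a median log2 fold change of -0.08, so the share lower was near that of all genes. The lower ones were Sem1, a small lid subunit (-0.72, adjusted p = 0.00277), Pomp, the core maturation factor (-0.84, adjusted p = 1.15e-05), and the stress-responsive zinc finger proteins Zfand5 (-0.995, adjusted p = 1.36e-07) and Zfand2a (-1.01, adjusted p = 0.00041). Rad23b, a shuttle for ubiquitinated substrates, was higher (0.45, adjusted p = 0.000243). In rev vs 4h, 4 of the list were higher and 2 lower, where 15.1% of all genes were higher and 15.6% lower.

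Of 14 genes of transcriptional control, 3 were lower and 1 higher in 4h vs 2h, with a median of -0.21, again near the 19.2% of all genes lower. Nfe2l1, the factor that drives subunit genes when degradation is short, averaged 88.5 ± 5.89 CPM in the 2h group against 78.4 ± 12.9 in the 4h group (SD, n = 4 each), a log2 difference of -0.19 (adjusted p = 0.114). Ddi2, the protease that activates it, was lower at -0.34 (adjusted p = 0.0108). Nfe2l2, the oxidative stress factor, was higher at 0.55 (adjusted p = 0.000541). The MAF partners Mafg and Mafk were lower, at -0.89 (adjusted p = 2.63e-06) and -1.49 (adjusted p = 3.03e-05), and Maff was not called, at -0.49 (adjusted p = 0.231). Against 0h, where Mafk and Maff had been higher at 2h (1.34, adjusted p = 0.000617, and 2.37, adjusted p = 0.00033), Mafk at 4h was not called (-0.15, adjusted p = 0.665), and Maff was higher (1.88, adjusted p = 0.000919).

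Upstream of the proteasome, in ubiquitin supply and substrate extraction, Rps27a, which encodes a ribosomal protein fused to ubiquitin, was lower in 4h vs 2h at a log2 fold change of -1.39 (adjusted p = 1.33e-09). The segregase Vcp was at -0.62 (adjusted p = 0.000111) and its cofactor Nploc4 at -0.25 (adjusted p = 0.0231). The ubiquitin-activating enzyme Uba1 averaged 207 ± 6.68 CPM in the 2h group against 228 ± 14.1 in the 4h group (SD, n = 4 each). It was not called, at a log2 fold change of 0.13 (adjusted p = 0.129).

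Downstream, in MHC class I antigen processing, 3 of 6 tested genes were lower in 4h vs 2h, where 19.2% of all genes were. Tap2, the partner of Tap1 in the peptide transporter, did not pass the filter on low counts. Tap1, a peptide transporter subunit beside Psmb9, was at -1.65 (adjusted p = 0.00032) and the peptidase Erap1 at -0.91 (adjusted p = 0.00323). The class I transactivator Nlrc5 was at 1.38 ± 0.376 CPM in the 2h group against 0.0569 ± 0.114 in the 4h group (SD, n = 4 each). At 4h Nlrc5 lay between 0 and 0.228 CPM and Tap1 between 0 and 3.77. As 3 counts equal 0.683 to 1.83 CPM there, the size of these falls rests on very few counts. Irf1, an interferon response factor, was not called in 4h vs 2h, at 0.27 (adjusted p = 0.321), but was higher at 2h vs 0h (0.94, adjusted p = 0.0111) and at 4h vs 0h (1.20, adjusted p = 0.000298), and was lower in rev vs 4h, at -1.13 (adjusted p = 0.000362).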

How the data were processed

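Raw counts per gene, as deposited by the authors, were used for 15 samples. Per the submitters' processing notes, reads were handled with bcl2fastq 2.19.1 and STAR 2.5.3a on mm10, and per the labels' protocols 1 µg of total RNA was depleted of ribosomal RNA. The counting tool, annotation and strand setting are not given in the sources used here. Names, biotypes, exons and coordinates came from GENCODE M21 (GRCm38, the assembly of mm10), which held 52489 of 52636 rows.

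The analysis used edgeR 4.0.16 under R 4.3.3: filterByExpr (minimum count 10, minimum total count 15), TMM, and the two-sided robust quasi-likelihood F test (legacy = FALSE) with group and clone over all samples. The fit used all 13451 tested genes, and Benjamini-Hochberg adjusted p under 0.05 was called. Clone differences came from a model with 1 mean per group and clone. "Overlap" of groups refers to CPM per library. Alternatives were DESeq2 1.42.0, total count scaling, no filter, no abundant genes, thinning, other designs, leaving out each library, and, chosen after seeing the data, the older method of edgeR.

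The genes, classes and lists were chosen with earlier results of these data known. Genes given by library are the 3 largest rises and falls per comparison among called genes with a mean of at least 1 CPM, the 3 largest clone differences, and the catalytic and inducible beta subunits. Values by library of Psma5, Psmb4, Psmc3, Psmd3, Psmd13, Psmd14, Psme1 and Psmf1, and other single values, were added after their values were seen. Some genes of the lists are not reported here. The steps were tested on simulated data. Depth limits the 4h libraries, where 3 counts equal 0.683 to 1.83 CPM. No molecular identifiers are named in the labels.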

Additional observations from a re-analysis of the deposited data

Results flagged for a closer look

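In groups of 4 libraries, a library was singled out when its gap to the nearest of the others, as a ratio to the group's range, exceeded the critical value of Dixon's test. This held in 7 of 141 tested groups, and chance gives about 1 in 20. Psme3 at 4h had 143 CPM in clone4_2, above 110.2 to 112 in the others (ratio 0.945). Psma8 in rev had 4.79 CPM in clone8_1, above 3.01 to 3.2 (0.893). Psmd10 at 2h had 3.80 CPM in clone8_2, below 4.43 to 4.51 (0.881). Psmd14 at 2h had 59.1 CPM in the same library, above 50.6 to 51.6 (0.876). Psmd5 at 4h had 32.4 CPM in clone8_2, above 22.0 to 23.4 (0.859). Psmc2 at 4h had 29.9 CPM in clone4_1, below 42.7 to 44.9 (0.856). Psmd1 at 4h had 100.5 CPM in clone4_2, above 90.8 to 92.2 (0.855). The 7 cases fell on 5 libraries.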

How the results depend on the processing

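After thinning all libraries to the smallest, which also left fewer genes to test, the genes called were 0 in 2h vs 0h, 5 in 4h vs 0h, 4 in 4h vs 2h, 2 in rev vs 4h, 0 in rev vs 0h and 0 between clones, and the median in rev vs 0h was -0.085. Total count scaling called 0 genes in either of 2h and rev against 0h and between clones, and gave medians of -0.11 in 2h vs 0h (all genes -0.18), -1.18 in 4h vs 0h (-0.73), -1.07 in 4h vs 2h (-0.57), 0.85 in rev vs 4h (0.45) and -0.32 in rev vs 0h (-0.30). It turned Psme3 to -0.22 in 4h vs 0h, -0.16 in 4h vs 2h and 0.036 in rev vs 4h, and Psme4 to -0.42 in 4h vs 0h; thinning turned Psmb10 to 0.11 in 4h vs 2h and -0.35 in rev vs 4h. DESeq2, the older method of edgeR and leaving out abundant genes each called 2 genes in 2h vs 0h, and DESeq2 called 5 between clones. Without the filter, 1 gene was called in rev vs 0h, and the median in 4h vs 2h was -0.66. In rev vs 0h 1 gene was called without the clone term and 4 from the groups compared alone. The latter added Psmc3 and Psmd13, whose mean levels were lower in rev than at 0h. The cause of these shifts was not tested.

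With the replicate block, 1 gene was called in rev vs 0h, where Psmb7 did not pass the test; the block gave 1 in 2h vs 0h, 31 in 4h vs 0h, 35 in 4h vs 2h and 32 in rev vs 4h. Deviations of samples with the same number, from the mean of their group and clone, correlated at -0.194 to 0.261 over 9 pairs of groups. With 2 samples behind each mean, these values cannot tell whether samples with the same number shared a culture or batch. Leaving out 1 library gave 0 to 1 gene in 2h vs 0h, 26 to 33 in 4h vs 0h, 32 to 34 in 4h vs 2h, 25 to 34 in rev vs 4h, 0 to 2 in rev vs 0h, 2 to 5 between clones and 0 to 1 for the clone difference in 4h vs 2h. Of 596 values of the single genes named, under all alternatives, 529 kept direction and call, 60 lost and 1 gained the call, and 6 reversed.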
